A study of Homo sapiens with 7 samples.

Results

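Integrins and laminins are the receptors and the anchoring matrix of cell adhesion. Their genes were taken by symbol from the deposited expression table: every row named as an integrin alpha or beta subunit or as a laminin alpha, beta or gamma chain. The rule found 38 of 60234 genes, made up of 18 integrin alpha subunits, 8 integrin beta subunits, 5 laminin alpha chains, 4 laminin beta chains and 3 laminin gamma chains. They were measured by poly-A RNA sequencing in cardiomyocytes differentiated from WTC-11, an established human induced pluripotent stem cell line, and matured for 35 days. All cultures came from this line and were given an antisense oligonucleotide (ASO) at 2 uM for 96 h without a transfection step. The scrambled ASO group had 3 libraries, and the group given an ASO against MYH7B had 4. The labels do not say whether the libraries of a group came from separate differentiations, so p-values measure the spread between these libraries, which may be technical. The column of MYH7B ASO replicate 1 does not follow the row order of the table, so the comparison used the 3 scrambled ASO libraries and MYH7B ASO replicates 2, 3 and 4.

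An integrin is a pair of an alpha and a beta subunit that spans the membrane, binds matrix outside the cell and holds the actin cytoskeleton through talin, kindlin and other adaptors inside it. The alpha subunit largely sets the ligand, which can be collagen, laminin, or proteins such as fibronectin and vitronectin that carry the RGD tripeptide. A laminin is a trimer of an alpha, a beta and a gamma chain, and laminins form the sheet of the basement membrane around each muscle cell. In striated muscle, ITGA7 paired with ITGB1 is the best known laminin receptor, and LAMA2 is the best known laminin alpha chain.

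TPM, the unit of the table, is an abundance per transcript length relative to all transcripts of a library, and it keeps no record of depth. Between 15290 and 16207 genes reached 1 TPM in the 6 libraries, and mitochondrially encoded genes took 27.4% to 33.6% of TPM. The target, MYH7B, stood at 23.0, 36.5 and 25.1 TPM under the scrambled ASO and at 9.30, 5.65 and 6.31 TPM in MYH7B ASO replicates 2 to 4. Of 12 cardiomyocyte markers all were detected, for example TNNT2 at 933 to 1324 TPM and MYL7 at 3601 to 5837 TPM. Genes used as markers of other cells were detected too, though bulk RNA does not show which cells carried them. The summed level of 11 fibroblast markers was 2960 to 5336 TPM with the scrambled ASO and 1411 to 2163 TPM with the MYH7B ASO. For 7 smooth muscle markers the sums were 1040 to 1436 TPM and 618 to 817 TPM.

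Of the 38 genes, 30 averaged 1 TPM or more across the 6 libraries and were tested with limma on log2(TPM + 1), with p-values adjusted over all 15988 genes tested. A gene is named as called where that adjusted p was below 0.05. The 8 others were listed at 0 in all 6 libraries (ITGAD, ITGAM and ITGB6) or had at most 1.59 TPM in any library (ITGAL, ITGAX, ITGB2, ITGB7 and LAMB4). ITGA2B, at a mean of 1.003 TPM, lay just inside the filter, and LAMB4, at 0.443 TPM, had the highest mean of the members outside it. The leukocyte integrins were therefore absent or nearly so apart from ITGAE. Of 6 leukocyte markers, 0 averaged 1 TPM or more. PTPRC, a general leukocyte marker, was the only 1 of them at 0 in all 6 libraries, while CD68 reached 1.46 TPM and SPI1 0.926 TPM.

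ITGA8, ITGAV and ITGA3, all of them integrin alpha subunits, fell with the MYH7B ASO, and no member was called higher. These are 3 of 30 members, where 1.66% of all genes tested were called, 1.48% lower and 0.181% higher. At an unadjusted p under 0.05 there were 16 lower members and 1 higher, where 10.6% and 4.67% of all genes tested were. The authors' deposited table called 15 members lower and 1 higher (LAMA4) of 30 with an adjusted p-value, the 3 limma calls among them. Of all genes with an adjusted p-value in the authors' deposited table, 8.71% were called, with 5.69% lower and 3.02% higher. The 2 groups of libraries did not overlap for 17 lower members and 1 higher member, against 14.1% and 7.11% of all genes tested. The log2 fold change was below 0 for 26 of the 30 members and for 54.8% of all genes tested. Its median was -0.61 over the 30 members and -0.044 over all genes tested. In bulk RNA, fewer cells of a type and less RNA per cell cannot be told apart. Of 8 lists of cell type markers, the fibroblast, smooth muscle and, narrowly, cardiomyocyte sums were lower in MYH7B ASO replicates 2 to 4, as most of these genes were. The sums of the other lists overlapped between the groups. The part of these cell types in the integrin and laminin values was not tested.

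**Figure D1:**
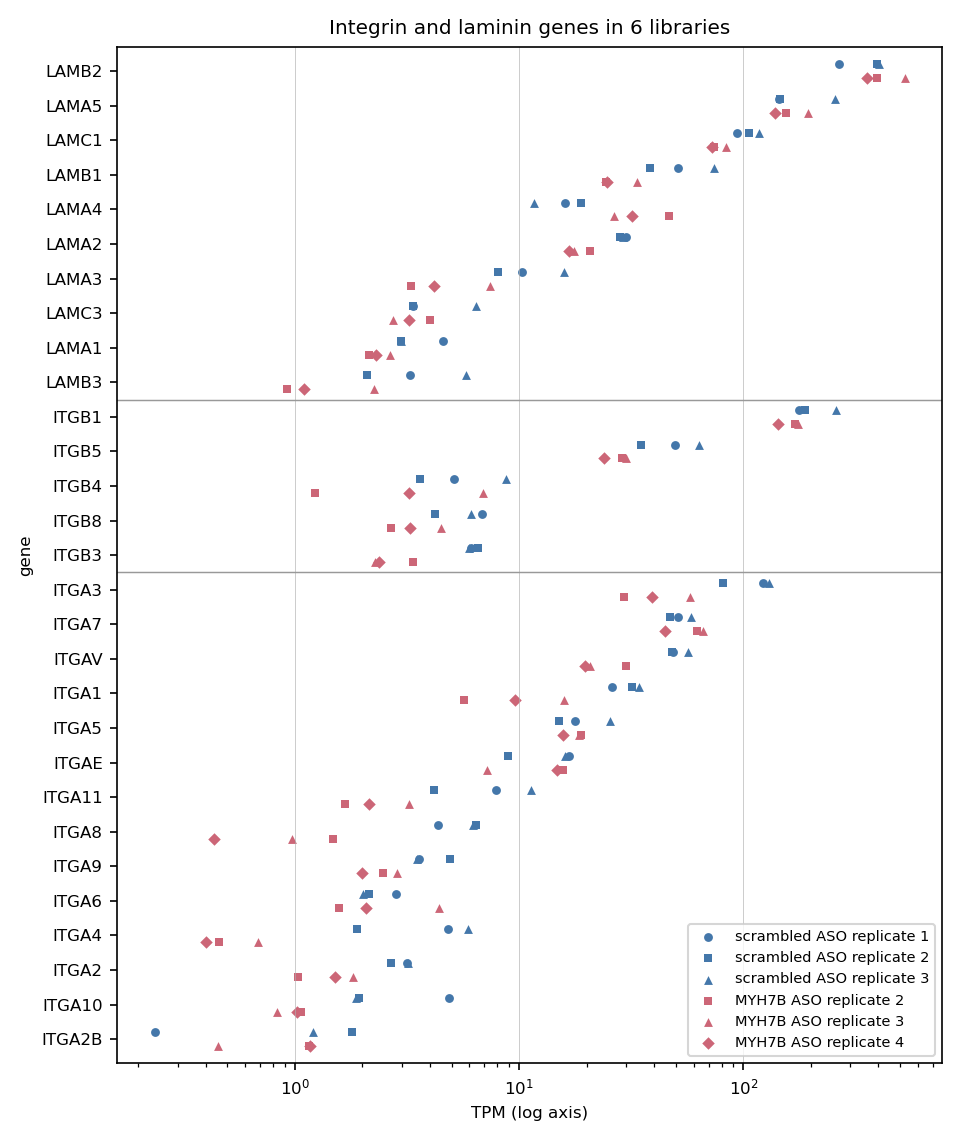
TPM (log axis) of 29 of the 30 tested integrin and laminin genes in each of 6 libraries, with scrambled ASO libraries in blue and MYH7B ASO libraries in red. ITGA8, ITGAV and ITGA3 lie lower in all 3 MYH7B ASO libraries plotted, LAMA4 lies higher, and ITGA7, ITGA5 and LAMA5 overlap.

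Among the alpha subunits that bind RGD ligands, ITGA8 and ITGAV fell and ITGA5 did not pass. ITGA8 (chromosome 10, positions 15513949 to 15720125 in GENCODE 29 on GRCh38) encodes a partner of ITGB1 that binds nephronectin and is typical of mesenchymal cells. Its levels were 4.33, 6.44 and 6.24 TPM in scrambled ASO replicates 1 to 3 and 1.49, 0.974 and 0.438 TPM in MYH7B ASO replicates 2 to 4. Every MYH7B ASO library was thus far below every scrambled ASO library, at a mean of 0.966 ± 0.524 TPM (SD, n = 3) against 5.67 ± 1.16 TPM (SD, n = 3). For ITGA8 this gave a log2 fold change of -1.78 ± 0.30 (SE, limma adjusted p = 0.0297).

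ITGAV (chromosome 2, positions 186590065 to 186680901) encodes the alpha subunit shared by the vitronectin receptors and by integrins that release active TGF-beta. It had 48.4, 48.0 and 56.9 TPM with the scrambled ASO and 30.1, 20.8 and 19.7 TPM with the MYH7B ASO. The groups were apart, and the highest MYH7B ASO library was replicate 2. The mean fell from 51.1 ± 5.03 to 23.5 ± 5.71 TPM (SD, n = 3 each), a log2 fold change of -1.11 ± 0.19 (SE, limma adjusted p = 0.0298). ITGA5, the alpha subunit of the classical fibronectin receptor, had 17.7, 15.0 and 25.5 TPM against 18.9, 18.6 and 15.6 TPM. Its groups overlapped, with a log2 fold change of -0.10 (limma adjusted p = 0.867). ITGA2B, the platelet subunit, ranged from 0.238 to 1.79 TPM over the 6 libraries with no separation of the groups.

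The laminin-binding alpha subunits differed among themselves. ITGA3 (chromosome 17, positions 50055968 to 50090481), a laminin receptor subunit found in many epithelial and mesenchymal cells, was the most abundant alpha subunit with the scrambled ASO, at 122, 81.3 and 130 TPM. It had 29.3, 57.7 and 39.1 TPM with the MYH7B ASO, all below the lowest scrambled ASO library. ITGA3 had a log2 fold change of -1.41 ± 0.27 (SE, limma adjusted p = 0.0442). ITGA7, the muscle laminin receptor subunit, had 51.0, 46.9 and 58.2 TPM with the scrambled ASO and 62.0, 65.8 and 44.9 TPM with the MYH7B ASO. These groups overlapped, with a log2 fold change of 0.13 and a standard error of 0.18 (limma adjusted p = 0.775). The annotated ends of ITGA7 and METTL7B, on opposite strands, share 44 bases. ITGA6, which pairs with ITGB1 or ITGB4, stayed between 1.58 and 4.41 TPM in all 6 libraries, and its groups overlapped. The log2 ratio of ITGA7 to ITGA3 was -1.26, -0.79 and -1.16 in the scrambled ASO libraries and 1.08, 0.19 and 0.20 in the MYH7B ASO libraries. In TPM, ITGA3 exceeded ITGA7 in each of the 3 scrambled ASO libraries, and ITGA7 exceeded ITGA3 in MYH7B ASO replicates 2, 3 and 4. The order was not seen in MYH7B ASO replicate 1, read as described at the end, where ITGA3 was 87.0 TPM, ITGA7 57.3 TPM and their log2 ratio -0.60.

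The calls of ITGA8, ITGAV and ITGA3 were each lost in most fits that left out 1 library. Such fits hold fewer libraries, and calls over all genes also fell in them, from 265 to between 53 and 149. With any of the 6 libraries left out ITGA8 was no longer called (limma adjusted p from 0.0553 to 0.106). ITGAV stayed called without MYH7B ASO replicate 2 (limma adjusted p = 0.0316) and was lost without each of the other 5 libraries (0.0726 to 0.132). ITGA3 stayed called without scrambled ASO replicate 2 (limma adjusted p = 0.0481) or MYH7B ASO replicate 3 (0.0358). Leaving out any of the 4 remaining libraries (scrambled ASO replicates 1 and 3, MYH7B ASO replicates 2 and 4) ended the call, at limma adjusted p-values between 0.116 and 0.177. The log2 fold changes stayed below 0 in all of these fits, from -1.97 to -1.57 for ITGA8, from -1.29 to -1.0 for ITGAV and from -1.66 to -1.18 for ITGA3.

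All 4 collagen-binding alpha subunits were lower in the authors' deposited table, and none was called by limma. ITGA1 (chromosome 5, positions 52787896 to 52959210), the most abundant of them, had 26.0, 31.9 and 34.1 TPM with the scrambled ASO and 5.70, 15.9 and 9.62 TPM with the MYH7B ASO. Its groups were well apart, and its log2 fold change of -1.57 ± 0.31 (SE) missed the threshold narrowly (limma adjusted p = 0.0513). The authors' deposited table gave ITGA1 a shrunken value of -1.12 (adjusted p-value 1.41e-05). PELO lies within ITGA1 on the same strand, so reads there cannot be assigned with certainty.

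ITGA11, the collagen receptor subunit typical of fibroblasts, had 7.91, 4.19 and 11.3 TPM against 1.68, 3.22 and 2.15 TPM. ITGA2 had 3.15, 2.69 and 3.19 TPM against 1.03, 1.83 and 1.51 TPM, and ITGA10, typical of cartilage, had 4.85, 1.93 and 1.87 TPM against 1.07, 0.832 and 1.02 TPM. None of these 3 genes had overlapping groups. Their limma log2 fold changes were -1.33, -0.72 and -0.90 (limma adjusted p = 0.112, 0.266 and 0.296). In the authors' deposited table the adjusted p-values of ITGA11, ITGA2 and ITGA10 were 3.89e-05, 0.0320 and 0.0182.

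ITGA4, a receptor subunit for VCAM1 and fibronectin, had 4.82, 1.89 and 5.91 TPM with the scrambled ASO and 0.459, 0.687 and 0.403 TPM with the MYH7B ASO. Scrambled ASO replicate 2 was the lowest of its group and still above all 3 MYH7B ASO libraries. The log2 fold change was -1.69 ± 0.39 (SE, limma adjusted p = 0.0839). ITGA4 was called by limma in 1 of the 6 fits that left out a library, the fit without that replicate (limma adjusted p = 0.0474). In the others the limma adjusted p was 0.171 to 0.25. The shrunken value of ITGA4 in the authors' deposited table was -1.64 (adjusted p-value 3.54e-09). ITGA9, the closest relative of ITGA4, had means of 3.99 and 2.45 TPM and was called in neither (limma adjusted p = 0.351, and 0.0864 in the authors' deposited table).

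**Figure D2:**
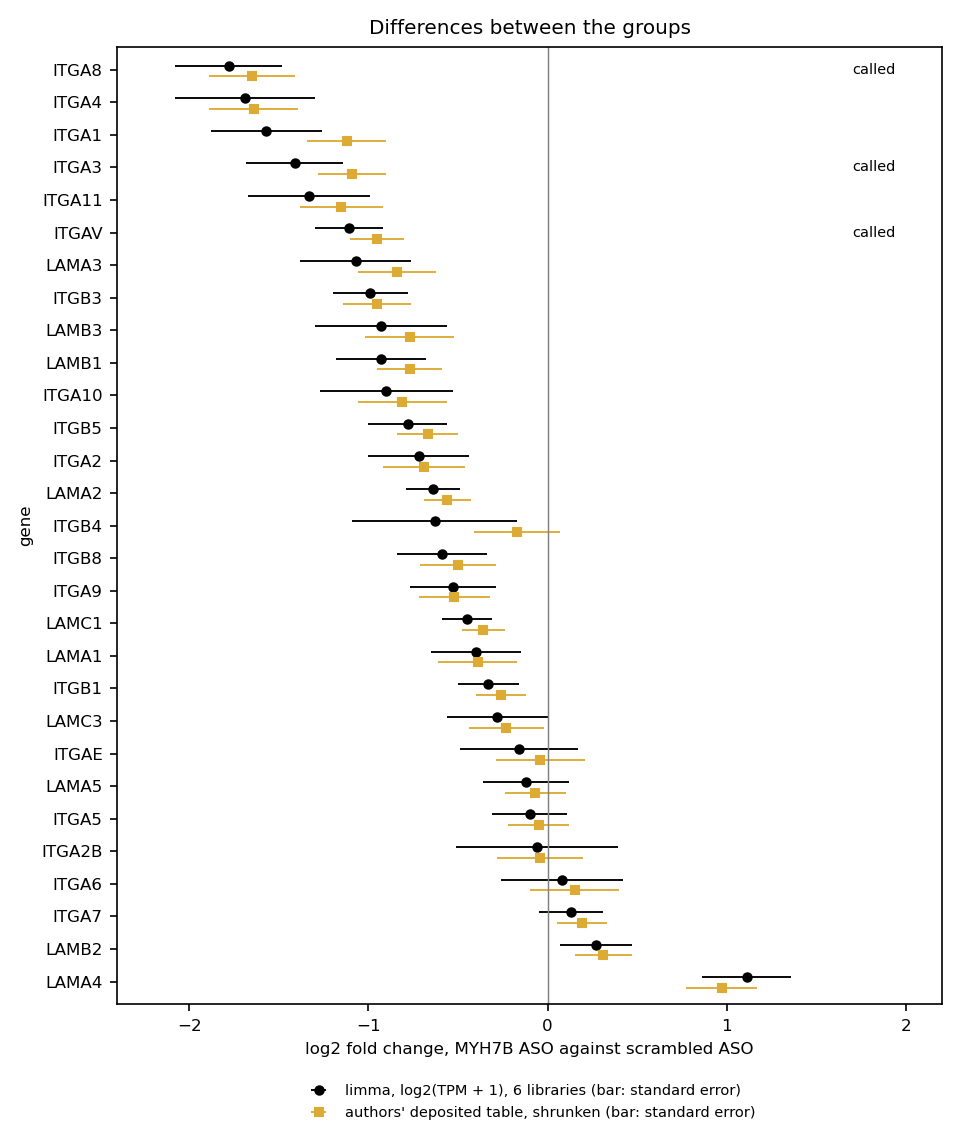
Log2 fold change of 29 of the 30 tested genes, MYH7B ASO against scrambled ASO, from limma on log2(TPM + 1) over 6 libraries (black) and from the authors' deposited table (yellow), with standard errors as bars. Most points lie left of 0, from -1.78 for ITGA8, and LAMA4 at 1.11 is the farthest right.

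None of the 5 tested beta subunits was called, and their log2 fold changes ran from -0.99 to -0.33. ITGB1, the common partner of the laminin, collagen and fibronectin receptor subunits, was the most abundant integrin gene, with 177, 188 and 260 TPM under the scrambled ASO. With the MYH7B ASO it had 171, 176 and 143 TPM, just below the scrambled ASO range. Its log2 fold change was -0.33 ± 0.17 (SE, limma adjusted p = 0.409, and 0.276 in the authors' deposited table).

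ITGB5 and ITGB3 both pair with ITGAV to bind vitronectin. ITGB5 had 49.4, 34.9 and 63.5 TPM against 28.6, 30.0 and 24.0 TPM, and ITGB3 had 6.08, 6.59 and 5.97 TPM against 3.36, 2.28 and 2.37 TPM. The groups of each were apart. The log2 fold changes were -0.78 for ITGB5 and -0.99 for ITGB3 (limma adjusted p = 0.146 and 0.0708). Each was called lower in the authors' deposited table (0.00219 for ITGB5 and 5.92e-05 for ITGB3, adjusted p-values). Another gene model on the same strand overlaps most of ITGB3. The other ITGAV partners gave less: ITGB8 had means of 5.74 and 3.47 TPM and overlapping groups, and ITGB6 was listed at 0. ITGB4, the hemidesmosome subunit that pairs with ITGA6, ranged from 3.60 to 8.74 TPM with the scrambled ASO and from 1.23 to 6.91 TPM with the MYH7B ASO.

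Summed over each family, integrin alpha TPM was 313, 258 and 356 with the scrambled ASO and 172, 201 and 155 with the MYH7B ASO, with no overlap. Summed integrin beta TPM was 245, 238 and 345 against 207, 221 and 176, also with no overlap. Summed laminin TPM was 626, 749 and 923 against 727, 898 and 654, where the groups overlapped. No test is given for these sums, since an exact permutation test of 3 against 3 libraries cannot go below 0.1.

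**Figure D3:**
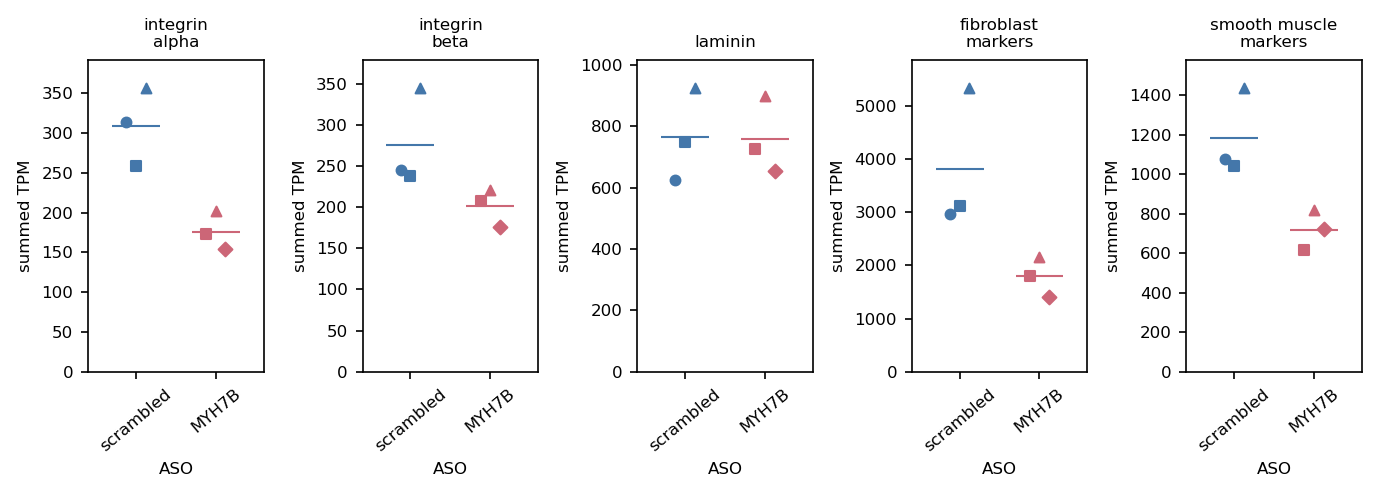
Summed TPM per library of the integrin alpha, integrin beta and laminin genes and of 2 lists of markers for other cell types, with group means as lines (circle, square, triangle and diamond are replicates 1 to 4). The integrin and marker sums lie lower in all 3 MYH7B ASO libraries, and the laminin sums overlap.

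None of the 11 tested laminin chains was called by limma, and their log2 fold changes lay on both sides of 0. LAMA4 (chromosome 6, positions 112108760 to 112254939), an alpha chain of vessel and muscle basement membranes, had 16.0, 18.8 and 11.6 TPM with the scrambled ASO. It had 46.7, 26.4 and 31.8 TPM with the MYH7B ASO, above every scrambled ASO library. Its mean was 15.5 ± 3.62 TPM (SD, n = 3) and 35.0 ± 10.5 TPM (SD, n = 3), and it was the only tested member whose groups were apart upward. The log2 fold change of 1.11 ± 0.25 (SE) did not pass (limma adjusted p = 0.0768). The authors' deposited table called LAMA4 higher, at 0.97 (adjusted p-value 8.81e-05). Another gene model annotated as protein-coding, AL365214.3, overlaps 18134 bases of LAMA4, and its part in these values was not tested.

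LAMA2 (chromosome 6, positions 128883141 to 129516569), the muscle alpha chain, had 30.0, 28.3 and 28.9 TPM with the scrambled ASO, a narrow range. It had 20.8, 17.5 and 16.7 TPM with the MYH7B ASO, all lower. The log2 fold change was -0.64 ± 0.15 (SE, limma adjusted p = 0.0847). Its shrunken value in the authors' deposited table was -0.56 (adjusted p-value 0.00114). The log2 ratio of LAMA4 to LAMA2 was -0.91, -0.59 and -1.31 in the scrambled ASO libraries and 1.17, 0.59 and 0.93 in the MYH7B ASO libraries. LAMA2 was thus the more abundant of the pair in every scrambled ASO library and LAMA4 in every MYH7B ASO library.

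LAMA5, the widely expressed alpha chain, was the most abundant of its class in all 6 libraries, with 145, 145 and 255 TPM against 155, 195 and 138 TPM. Its groups overlapped, with a log2 fold change of -0.12 (limma adjusted p = 0.851). LAMA3, the alpha chain of epithelial anchoring laminin, had 10.3, 8.09 and 15.8 TPM against 3.31, 7.45 and 4.15 TPM. Its log2 fold change was -1.07 (limma adjusted p = 0.156, and 0.00316 in the authors' deposited table). LAMB3, the beta chain that joins LAMA3, had 3.28, 2.11 and 5.81 TPM against 0.921, 2.26 and 1.1 TPM. Its groups overlapped, and it was called lower in the authors' deposited table (adjusted p-value 0.0285). LAMA1, the embryonic alpha chain, had means of 3.50 and 2.36 TPM and a limma adjusted p of 0.503.

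The beta chain LAMB2, typical of mature muscle, was the most abundant member of all, with 266, 393 and 401 TPM against 395, 523 and 357 TPM. Its groups overlapped, with a log2 fold change of 0.27 and a standard error of 0.20 (limma adjusted p = 0.583). LAMB1, the more widespread beta chain of developing tissue, had 51.0, 38.4 and 74.3 TPM against 24.3, 33.7 and 24.6 TPM, with the groups apart. The log2 fold change of LAMB1 was -0.93 ± 0.25 (SE, limma adjusted p = 0.125, and 8.15e-04 in the authors' deposited table). LAMB1 overlaps DLD, which is transcribed from the other strand, and whether the libraries keep strand is not given in the sources used here.

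LAMC1, the gamma chain of most laminins, had 93.4, 106 and 117 TPM against 74.1, 83.7 and 72.3 TPM, again without overlap. Its log2 fold change was -0.45 ± 0.14 (SE, limma adjusted p = 0.173, and 0.0390 in the authors' deposited table). LAMC3 had means of 4.39 and 3.32 TPM and overlapping groups.

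Shares within a class, which do not depend on how a library was scaled, give the same values in another form. ITGA3 took 38.9%, 31.5% and 36.5% of summed integrin alpha TPM with the scrambled ASO and 17.0%, 28.6% and 25.3% with the MYH7B ASO. ITGA7 took 16.3%, 18.2% and 16.3% against 35.9%, 32.7% and 29.1%. The share of ITGA3 was lower and that of ITGA7 higher in MYH7B ASO replicates 2 to 4 than in any scrambled ASO library. In replicate 1 the ITGA3 share was 36.7%, within the scrambled ASO range, and the ITGA7 share was 24.1%, above it. For ITGAV the shares overlapped, at 15.4% to 18.6% and 10.3% to 17.5%. Among laminin alpha chains LAMA4 took 7.79%, 9.25% and 3.70% against 20.5%, 10.6% and 16.5%. LAMA5 held 70.4% to 81.1% and 67.9% to 78.3%, and LAMB2 held 83.1% to 90.6% of summed laminin beta TPM with the scrambled ASO and 92.9% to 93.9% with the MYH7B ASO. ITGB1 held 72.3% to 79.0% of integrin beta TPM against 79.8% to 82.4%. These shares are descriptions, and no test was made on them.

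**Figure D4:**
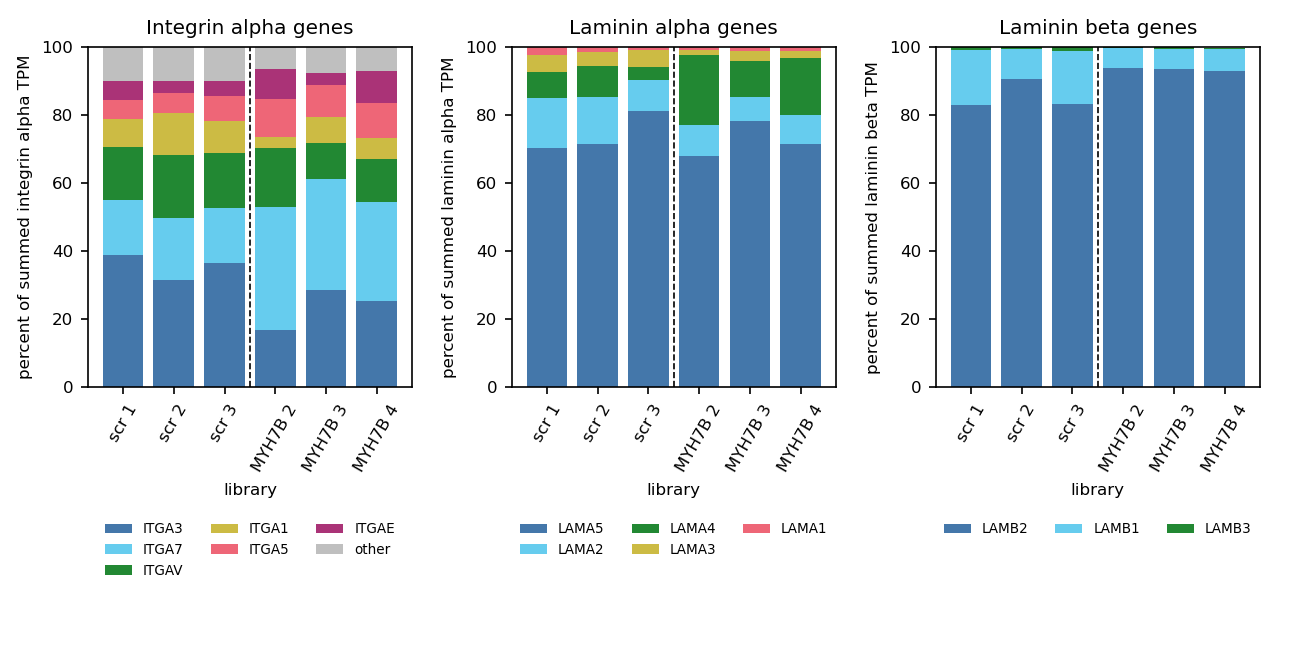
Percent of the summed TPM of the integrin alpha, laminin alpha and laminin beta genes held by single genes, in scrambled ASO replicates 1 to 3 (left of the dashed line) and MYH7B ASO replicates 2 to 4. ITGA7 widens from at most 18.2% to at least 29.1%, and LAMA4 from at most 9.25% to at least 10.6%.

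Promoter sequence is shown for a called integrin, ITGAV, and for LAMA2, where a search for transcription factor motifs found a match. Both are the 250 bases before the RefSeq start on the plus strand of GRCh38.p14, at chr2:186589806-186590055 and chr6:128882888-128883137, and capitals mark the match.
ITGAV: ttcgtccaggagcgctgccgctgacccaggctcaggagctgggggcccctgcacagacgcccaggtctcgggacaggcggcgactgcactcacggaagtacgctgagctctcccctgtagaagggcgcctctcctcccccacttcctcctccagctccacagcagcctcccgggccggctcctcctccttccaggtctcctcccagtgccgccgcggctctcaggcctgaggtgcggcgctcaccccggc
LAMA2: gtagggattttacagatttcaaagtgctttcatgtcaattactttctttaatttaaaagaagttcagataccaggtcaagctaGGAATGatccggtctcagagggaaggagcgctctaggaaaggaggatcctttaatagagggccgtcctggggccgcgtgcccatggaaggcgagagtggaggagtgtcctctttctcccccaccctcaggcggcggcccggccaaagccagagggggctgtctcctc
The match is the MCAT element, the letters CATTCC or their complement GGAATG, which TEAD factors bind. It lies at positions -167 to -162 of LAMA2, counted back from the start.

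Of the 38 genes, 26 had an entry in the RefSeq promoter table, and the first start listed for each gene was used. MCAT letters were found in 4 of the 26 (ITGA10, ITGA5, ITGB1 and LAMA2), a share of 15.4%, against 11.9% of all 27305 promoters. The AP-1 letters TGANTCA were found in LAMA3 alone, against 6.60% of all promoters. The GC box, GGGCGG or CCGCCC, was found in 13 of 26, a share of 50.0% against 42.3% of all. Of the 4 promoters with MCAT letters, LAMA2 and ITGA10 belong to genes lower in the authors' deposited table, while ITGA5 and ITGB1 were not called in it. Of all 30 members with an adjusted p-value there, 15 were lower. GC made up 70.8% of the ITGAV window and 53.2% of the LAMA2 window, with a median of 58.0% over all promoters. A match is only a run of letters, and binding was not measured.

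Genes that act with integrins were taken from 4 lists. Among 23 other matrix ligands, 20 were tested, 3 fell and none was called higher, against 1.48% and 0.181% of all genes tested. The median log2 fold change was -0.66. The 3 were FN1 (fibronectin), EDIL3 (an RGD-bearing matrix protein) and COL1A2 (a chain of type I collagen). FN1 had 600 TPM, 481 TPM and 1020 TPM with the scrambled ASO and 125, 154 and 121 TPM with the MYH7B ASO, with a log2 fold change of -2.32 (limma adjusted p = 0.00609), and stayed called with any library left out. EDIL3 had 42.2, 28.6 and 58.5 TPM against 11.0, 19.2 and 13.2 TPM, and its log2 fold change was -1.49 (limma adjusted p = 0.0447). COL1A2 had 603, 613 and 1079 TPM against 272, 348 and 238 TPM, and its log2 fold change was -1.38 (limma adjusted p = 0.0343). EDIL3 and COL1A2 each stayed called in only 1 of the 6 fits that left out a library. Of 19 ligands with an adjusted p-value in the authors' deposited table, 9 were lower and 1 higher, against 5.69% and 3.02% of all genes.

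Among 47 adaptors, kinases and actin linkers at integrin tails, 44 were tested, 4 fell and none was called higher, against 1.48% and 0.181% of all genes tested, with a median log2 fold change of -0.17. Of the 44, 8 were lower and 2 higher in the authors' deposited table, against 5.69% and 3.02% of all genes. PTK2, focal adhesion kinase, had 47.8, 51.7 and 41.6 TPM against 23.2, 29.4 and 24.2 TPM, a log2 fold change of -0.85 (limma adjusted p = 0.0398). Its close relative PTK2B had 31.5, 18.6 and 24.0 TPM against 6.90, 10.3 and 8.41 TPM, a log2 fold change of -1.42 (limma adjusted p = 0.0244). The groups of both kinases were apart.

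PARVA, the parvin that joins integrin-linked kinase to actin, had 23.5, 20.5 and 22.9 TPM against 8.56, 10.6 and 8.04 TPM (log2 fold change -1.22, limma adjusted p = 0.0123). RSU1, which binds the same kinase complex, had 18.5, 14.7 and 25.1 TPM against 8.42, 6.34 and 7.89 TPM (log2 fold change -1.23, limma adjusted p = 0.0351). PTK2 was called in none of the 6 fits that left out a library, RSU1 in 1, PTK2B in 2 and PARVA in 3. None of 12 tested basement membrane partners, such as nidogens and type IV collagens, was called by limma. Of these 12, 11 had a log2 fold change below 0, the median was -0.32, and 4 were called lower in the authors' deposited table, where 5.69% of all genes were. None of the 6 other laminin receptors, dystroglycan among them, was called in limma or in the authors' deposited table, with a median of 0.04.

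The other cell types that could bear on these values were read from marker lists. For comparison, 14.1% of all genes tested had groups apart downward and 1.48% were called lower, and their median log2 fold change was -0.044. Of 11 fibroblast markers, LUM and COL1A2 fell, 6 were lower in MYH7B ASO replicates 2 to 4 than in any scrambled ASO library, and the median log2 fold change was -0.88. The list was not uniform: PDGFRA had 19.8, 27.8 and 23.5 TPM against 41.1, 32.9 and 34.8 TPM, and TCF21 had 7.40, 7.53 and 10.3 TPM against 12.1, 18.4 and 12.8 TPM. Of 7 smooth muscle markers MYH11 fell, from 58.6, 74.2 and 77.6 TPM to 7.64, 15.6 and 15.4 TPM, and 4 had groups apart downward. In that list 6 log2 fold changes were below 0, and that of CNN1 was 0.24. Of 12 cardiomyocyte markers MYL4 fell, 6 had groups apart downward and 9 had a log2 fold change below 0. TNNI1 was apart upward, with 1106, 1302 and 1186 TPM against 2324, 1317 and 1344 TPM. The sums of the 12 cardiomyocyte markers were narrowly apart, at 12328 to 13389 TPM against 9860 to 12277 TPM. Sums of 9 endothelial markers overlapped, at 37.7 to 49.5 TPM and 37.1 to 56.7 TPM. PECAM1, CDH5 and VWF stayed at or under 1.12 TPM in all 6 libraries, while EGFL7 had 19.0 to 43.0 TPM and KDR 6.89 to 9.82 TPM. TEK had 11.4, 8.08 and 12.2 TPM against 3.23, 6.86 and 3.73 TPM, with the groups apart and a log2 fold change of -1.08 (limma adjusted p = 0.111). Epicardial marker sums overlapped, at 329 to 405 TPM and 245 to 376 TPM, and so did epithelial marker sums, at 1922 to 2257 TPM and 2228 to 2706 TPM. The part of any of these cell types in the integrin and laminin values was not tested.

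MYH7B ASO replicate 1 could be read once its values were put in the gene order of another annotation release. In this library mitochondrially encoded genes took 17.2% of TPM, 14823 genes reached 1 TPM and MYH7B was 1.29 TPM. Each of these lay below the range of the other 6 libraries. TPM is relative to all transcripts, and the bearing of the mitochondrial share on the values of replicate 1 was not tested. The fibroblast marker sum of replicate 1 was 4246 TPM, within the scrambled ASO range, while ITGA8 at 1.38 TPM, ITGAV at 18.4 TPM, ITGA1 at 10.3 TPM and ITGA4 at 1.22 TPM lay below every scrambled ASO library. ITGA3, at 87.0 TPM, lay within the scrambled ASO range, and ITGB5, LAMC1 and LAMA5 lay above it. LAMA4 was 20.3 TPM and LAMA2 was 8.56 TPM, a log2 ratio of 1.24, while the LAMA4 share of laminin alpha TPM was 5.59%, within the scrambled ASO range. The ITGB1 share of integrin beta TPM was 67.0%, below that range, and the LAMB2 share of laminin beta TPM was 88.2%, within it. Summed integrin alpha TPM was 237, below the scrambled ASO range, summed integrin beta TPM was 271, within it, and summed laminin TPM was 1177, above it. This library departs widely from the others: 13 of the 30 tested members were below every scrambled ASO library and 10 above, against 37.1% and 30.0% of all genes tested. With it in a fit of 7 libraries, 3 members were called lower where 0.967% of all genes were: ITGA8 (limma adjusted p = 0.0321), ITGAV (0.0296) and ITGA1 (0.0436). Of the 7 called ligands and adaptors, EDIL3, COL1A2, PTK2B and PARVA were not called in that fit (limma adjusted p = 0.0501, 0.207, 0.127 and 0.144). ITGA3 was not called either, with a log2 fold change of -1.13 (limma adjusted p = 0.196).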

How the data were processed

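Values were deposited by the authors as TPM per gene, and each of the 6 columns compared sums to 1000000. Per the submitters' processing notes, the build was GRCh38.p13 and DESeq2 was used. The aligner, quantifier, annotation release and DESeq2 version are not given in the sources used here. The authors' deposited comparison table holds, per the file headers, a mean normalized count (a signal), a shrunken log2 fold change with its standard error on the log2 scale, a test score, and p-values with adjusted p-values, for 25374 genes. Which libraries entered it is not stated. An adjusted p-value is given for 15527 genes. Depth is unknown, so replicate spread is the measure of error. Unused per-sample columns numbered 0.

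The test was limma (version 3.58.1, under R 4.3.3) with moderated variances that follow the mean level, on log2(TPM + 1) of genes averaging 1 TPM or more, and Benjamini-Hochberg adjustment covered all of them. This scale understates changes of low genes. The procedure was tested on simulated data. Replicate 1 of the MYH7B ASO fills 58721 of 60234 rows. Against the others its median correlation was 0.408 in the deposited order and 0.955 in the sorted gene order of GENCODE 29. It entered only an alternative fit. The values of 1 tested member are not reported here.

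The members and lists were chosen with earlier results of these data known. The values of every library are given for members called by limma or by the authors, and for the 12 most abundant. From each list up to 6 called genes are named. Markers and library-level values named beside them, and the promoters shown, were chosen after their values were seen. Replicate numbers are shared by the groups, but no label says that they mark a shared culture. Deviations from the group means in libraries of like number correlated by 0.08 and 0.11 (2 pairs by title) and by -0.07 and -0.04 (2 pairs by description). Tables were made with pandas 2.3.3 and numpy 2.4.6 under Python 3.11.15, and plots with matplotlib 3.10.9.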

Additional observations from a re-analysis of the deposited data

Results flagged for a closer look

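With the reordered replicate 1 included, the MYH7B ASO group has 4 libraries, and each tested member was examined for a library far from the other 3. Of 30 members, 3 had such a library, by a threshold that chance passes in about 1 in 20 genes. The share over all genes tested is not given, so the count does not mark out these members. Replicate 1, which stood out for ITGB5 and LAMC1, departs widely from the others over all genes tested. ITGB5 was 67.8 TPM in replicate 1 against 24.0 to 30.0 TPM in the others. LAMC1 was 155 TPM in replicate 1 against 72.3 to 83.7 TPM. ITGA2B was 0.453 TPM in replicate 3 against 1.15 to 1.17 TPM.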

How the results depend on the processing

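The count of members called lower, 3 in the comparison as reported, was 0 with no filter on low values, 1 with no trend in the variance, and 0 under a replicate block, whether numbered by title or by description. Only 2 numbers were shared by the groups under either numbering. A block therefore leaves little replication to measure error, and its 0 calls cannot tell dependence on pairing from lost power. The count of lower members ran from 0 to 2 when a library was left out, and 0 members were called without scrambled ASO replicate 1, scrambled ASO replicate 3 or MYH7B ASO replicate 4. The count of members called higher was 0, and 1 (LAMA4, limma adjusted p = 0.0415) with a minimum mean of 5 TPM, where ITGA1 was also called (0.0219) and ITGA8 was below the minimum. Over all genes 265 were called, 29 higher and 236 lower. The count was 40 with no filter, 150 with no trend, 170 with 7 libraries, 0 under either replicate block, where 1718 and 1096 genes had an unadjusted p under 0.05, and from 53 to 149 when a library was left out. With median-ratio rescaling the split was 58 higher and 213 lower. Median-ratio rescaling (limma adjusted p = 0.0540), sample weights (0.0781) and a pseudocount of 5 (0.0573) each ended the ITGA3 call. No called member changed sign in any alternative. ITGA8 ranged from -2.55 to -0.84, ITGAV from -1.32 to -0.99 and ITGA3 from -1.66 to -1.10. The causes of these changes were not tested, and some alternatives also differ in the number of libraries or of genes tested.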

Other observations

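ITGAE had 13.2 TPM on average, near ITGA5 at 18.5 TPM, but the authors' deposited table gave it a mean normalized count of 139 against 1992 for ITGA5. That is 10.5 normalized counts per TPM for ITGAE, where the 29 other tested members had 54.5 to 176. HASPIN overlaps ITGAE on the opposite strand.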
